A study of Chrysodeixis includens with 4 samples.

Results

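The transcripts described here are the 200 longest assembled loci of third-instar Chrysodeixis includens caterpillars. The species is the soybean looper, a moth of the family Noctuidae and a leaf-feeding pest of soybean. The loci were taken from the authors' deposited table of head against body. The length of a locus is its span on an assembled contig, and the longest locus of each Trinity gene was kept, a Trinity gene being the assembler's group of related contigs. The 200 longest of the 15437 loci so kept, out of 19878 loci in all, are the members. They span 4321 to 20765 bases with a median of 5091 bases, against a median of 819 bases over 1 locus per Trinity gene. Expression values were not used to choose them. Whether the assembled span of a locus depends on its level or on sequencing depth was not tested.

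The head libraries and the body libraries came from the same kind of animal, larvae of a purchased laboratory colony, dissected into head and body. Each tissue had 2 libraries, each from a pool of 5 larvae, so 4 libraries in all. Body here is the rest of the larva after removal of the head. Whole heads and whole bodies hold many cell types, so more cells of a type and more RNA per cell cannot be told apart. The table gives 1 FPKM value per tissue (fragments scaled to locus length and to sequencing depth), so no spread between libraries can be given, and the only test is the authors' own, which rests on 2 libraries per tissue. Whether the pools were independent is not stated, so its p-values may measure technical spread. A locus is termed called where its q in the authors' deposited table is under 0.05. Which column is head and which is body rests on the order of the table's headers, since 0 loci carry a gene name and no tissue marker could be looked up.

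A long messenger RNA can carry a long coding region, a long untranslated region, or both. In insects the giant coding regions belong to proteins such as the titin-like springs of muscle, the spectraplakins that cross-link the cytoskeleton and large extracellular matrix and adhesion proteins. In Drosophila, many transcripts of the nervous system also carry unusually long 3′ untranslated regions. The caterpillar head encloses the brain and the mouthpart muscles, and the body encloses the gut, fat body, Malpighian tubules and body wall muscle. None of these roles can be assigned to a locus of this table, and loci are therefore given by identifier, position on the contig, length and level. Positions are on the contigs of the authors' assembly, counted from base 1.

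Head was the tissue with the higher FPKM for 142 of the 200 longest loci (71.0%), and body for 57, while 1 locus was listed at 0 in both. Over 1 locus per Trinity gene, head was the higher tissue for 52.4%. In the authors' deposited table, 77 of the 191 tested members (40.3%) were called, against 24.3% of all 19061 tested loci and 24.1% of the 14831 tested loci with 1 locus per Trinity gene. The 62 members called higher in head were 32.5% of the tested members, where the same share was 9.73% of all tested loci and 9.87% with 1 locus per Trinity gene. The 15 members called higher in body were 7.85%, against 14.6% of all tested loci and 14.2% with 1 locus per Trinity gene. Head was thus the higher tissue in 80.5% of the members' calls. The remaining 114 tested members were not called.

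The size of the difference showed the same order. The median of log2((head FPKM + 1)/(body FPKM + 1)) was 0.67 over the members, with quartiles of -0.08 and 1.62, against 0.06 over all loci and 0.09 over 1 locus per Trinity gene. Other scalings of the tissues move the median of all loci by 0.47 (equal upper quartiles) or 0.22 (TPM) on the log2 scale. TPM values were smaller than FPKM values and 1 was added after scaling, so TPM differences were also shrunk more. XLOC_009285, at 0 in head, moved from -4.14 to -1.89 as TPM, and the abundant XLOC_014104 moved from 2.70 to 3.04. The TPM figures thus mix scaling and shrinkage. Relative to the median of all loci, the members' median was higher by 0.60 as deposited, by 0.57 with equal upper quartiles and by 0.36 as TPM.

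**Figure D1:**
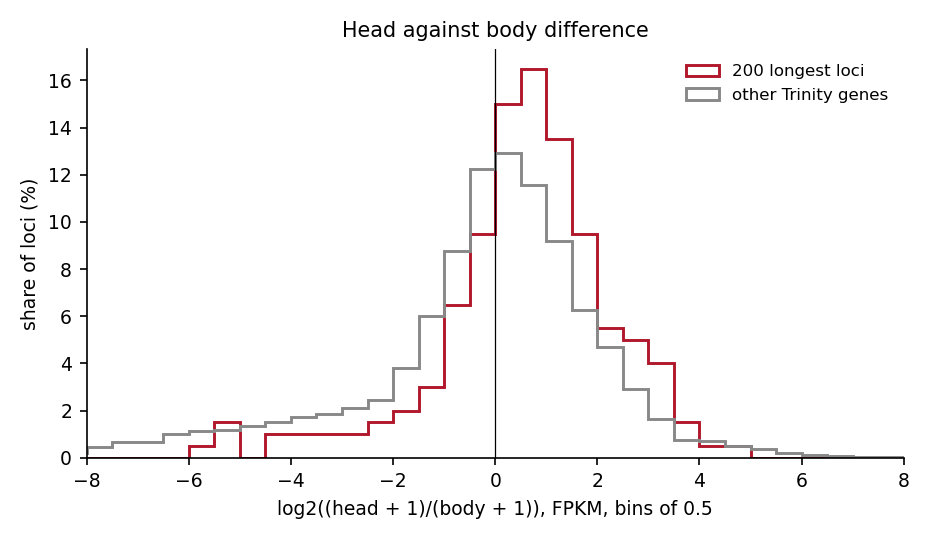
Share of loci (%) by log2((head + 1)/(body + 1)) of FPKM in bins of 0.5, for the 200 longest loci and for the other Trinity genes with 1 locus each. The members' curve lies to the right of the other one around its peak (median 0.67 on this log2 scale), and 6 members lie below -4.

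The levels themselves were moderate. The median member stood at 12.3 FPKM in head, with quartiles of 6.82 and 22.1, and at 7.81 FPKM in body, with quartiles of 3.39 and 18.0. Nearly all were measured in both tissues, with 191 members at 1 FPKM or more in head and 184 in body. At 10 FPKM or more there were 118 members in head and 86 in body, and 63 were at that level in both. At 100 FPKM or more there were 6 in head and 2 in body. Across the 200 members, Spearman's rho between the head and body levels was 0.39, given as a description only, since both values share the locus length and the assembly.

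Because the members are long, even moderate levels rest on many sequenced fragments. The worth of 1 fragment in each library, read from the lowest values of the table, converts FPKM to an estimated number of fragments. The median member had an estimated 628 fragments in head and 184 in body, against 77.3 in head and 43.7 in body for the other loci of 600 bases or more with 1 locus per Trinity gene. Fewer than 10 estimated fragments in the tissue with fewer were found for 16 of the 200 members and for 3231 of the 10087 other loci. On the same scale the head libraries were together 2.15 times as deep as the body libraries, and the part of this depth in the direction of the calls was not tested.

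**Figure D2:**
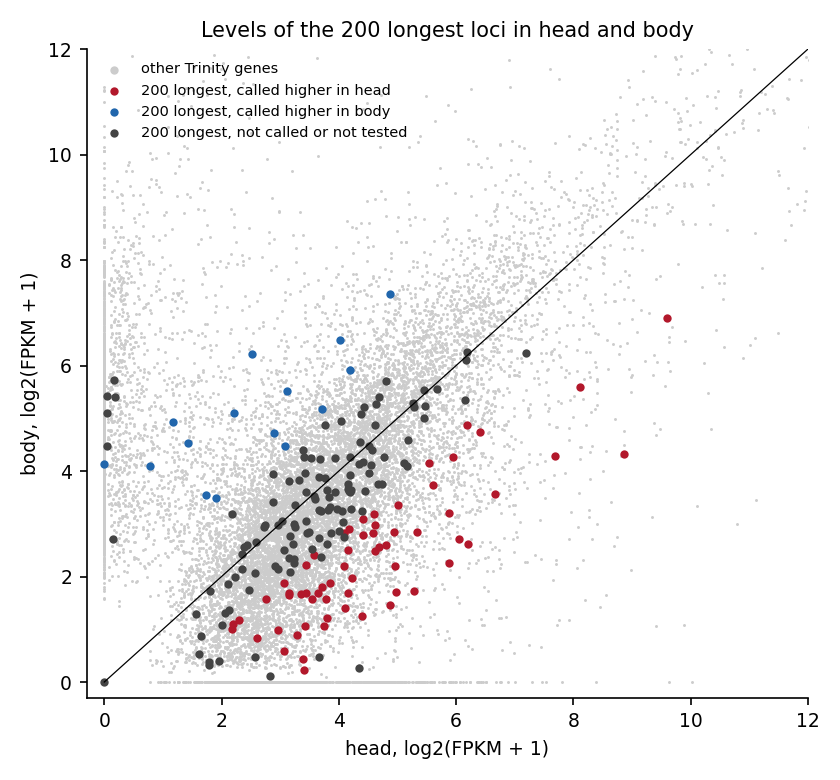
Head against body levels as log2(FPKM + 1) for the 200 longest loci, coloured by the authors' call, over the other Trinity genes in grey, with the line of equal level; grey points beyond the axes are not drawn. The 62 members called higher in head lie below the line over the whole range of levels, and 6 members called or not called lie at the left edge, close to 0 in head with 16.6 to 52.2 FPKM in body.

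The 5 longest loci were all called higher in head. XLOC_014232, bases 15 to 20779 of contig TRINITY_DN13048_c5_g1_i2, is the longest at 20765 bases and had 65.1 FPKM in head against 5.57 FPKM in body. Its log2 difference was 3.33 with q = 0.00041 in the authors' deposited table, the smallest q there. XLOC_014165, bases 10 to 13664 of TRINITY_DN13037_c3_g1_i1, reached 39.6 FPKM in head, against 6.16 FPKM in body, a log2 difference of 2.50 with the same q in the authors' deposited table. These longest transcripts rest on an estimated 13199 and 5246 fragments in head, and on 525 and 380 in body.

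XLOC_011978, bases 7 to 11916 of TRINITY_DN12624_c3_g1_i1, reached 23.4 FPKM in head, against 6.86 FPKM in body, with q = 0.00441 in the authors' deposited table. XLOC_014010, bases 13 to 10219 of TRINITY_DN13014_c3_g2_i1, reached 12.7 FPKM in head, against 1.98 FPKM in body, with q = 0.00041 in the authors' deposited table. The smallest body level among the 5 was that of XLOC_005731, bases 24 to 10081 of TRINITY_DN11334_c0_g5_i2, at 9.57 FPKM in head against 0.179 FPKM in body. Its log2 difference of 3.16 had q = 0.00591 in the authors' deposited table, and its body value rests on only an estimated 8.1 fragments.

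Within the members, the share called higher in head was larger the longer the loci. In the 50 longest, of 5891 bases or more, 24 of 47 tested loci were called higher in head and 3 higher in body, and the median log2 difference was 1.13. In the next 50, down to 5092 bases, 17 of 46 were called higher in head and 3 higher in body, with a median of 0.59. The third 50, down to 4610 bases, had 12 of 50 called higher in head and 5 in body, with a median of 0.48. The last 50 had 9 of 48 called higher in head and 4 in body, with a median of 0.34. The median head level changed little over these blocks, between 10.9 and 13.4 FPKM, and the median body level was 6.10, 7.39, 8.84 and 8.49 FPKM from the longest block to the shortest.

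Of the 20 longest loci, 12 of 19 tested were called higher in head and 0 higher in body, and 19 had the higher FPKM in head. Across all 200 members, Spearman's rho between length and log2 difference was 0.16, and over 1 locus per Trinity gene it was -0.09, both given as descriptions.

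**Figure D3:**
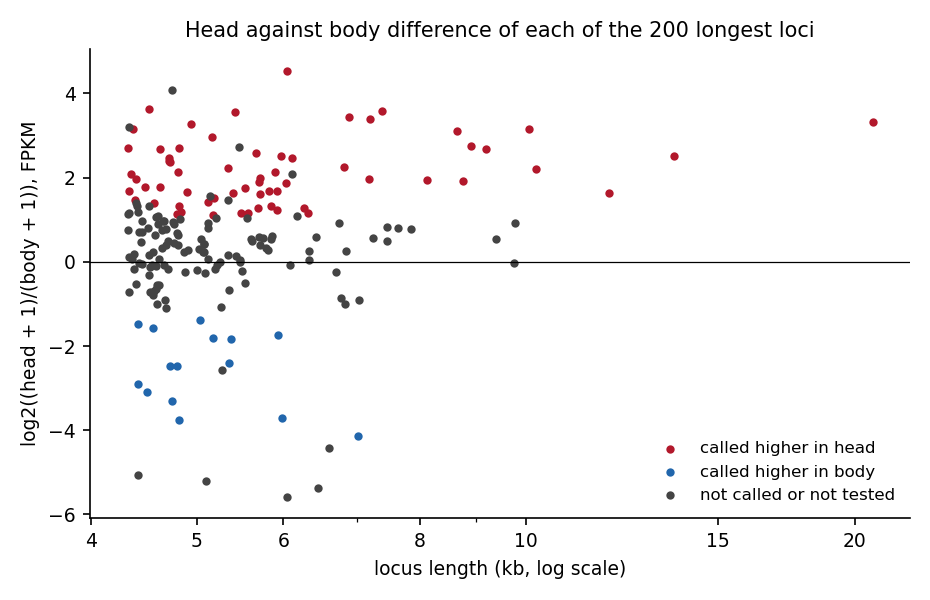
Difference of each of the 200 longest loci, log2((head + 1)/(body + 1)) of FPKM, against locus length in kb on a log scale, coloured by the authors' call. Every locus longer than 10 kb (5 loci) was called higher in head, and the loci called higher in body are all shorter than the 20 longest.

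The last members by length were XLOC_000388, at 3.16 FPKM in head against 1.47 FPKM in body, and XLOC_003966, at 15.1 FPKM in head against 6.28 FPKM in body. The first loci outside were XLOC_013202, at 11.8 FPKM in head against 3.96 FPKM in body, and XLOC_002322, at 8.46 FPKM in head against 5.74 FPKM in body. These loci are 4322, 4321, 4316 and 4314 bases long, and none of them was called. The next 200 loci by length, of 3557 to 4316 bases, had 36 of 195 tested loci called higher in head (18.5%) and 19 called higher in body (9.74%), with a median log2 difference of 0.27. Their median levels were 12.9 FPKM in head and 11.2 FPKM in body.

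When all loci with 1 locus per Trinity gene were ranked by length and taken in blocks of 200, the members had the highest share of calls higher in head. In the 76 other blocks this share ranged from 2.15% to 18.5% with a median of 9.28%. The share called higher in body ranged from 7.07% to 24.3% in those blocks, and 1 block lay at or below the members' 7.85%. The median log2 difference of the other blocks ranged from -0.42 to 0.60, below the members' 0.67 in each. The share within 2-fold of equal level was 47.5% for the members and had a median of 46.0% over the other blocks.

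**Figure D4:**
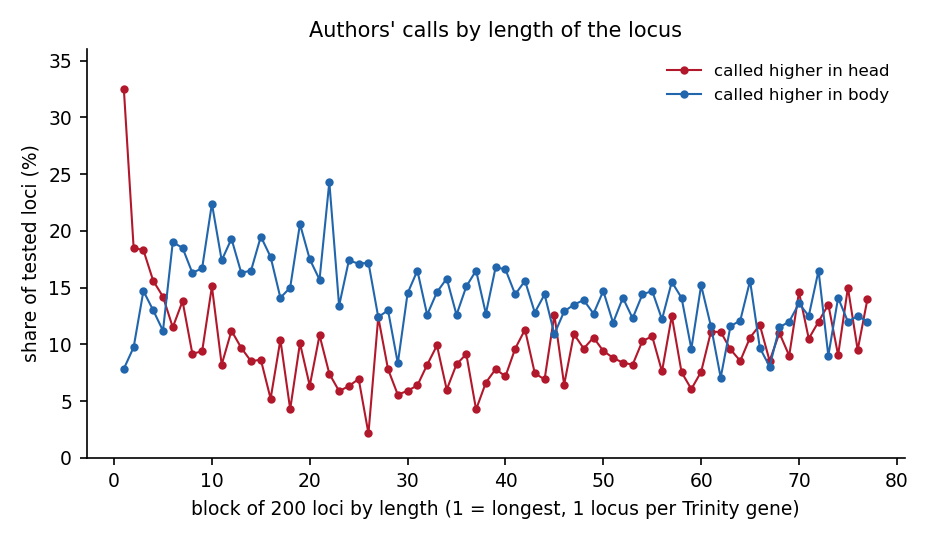
Share of tested loci (%) called higher in head and higher in body in the authors' deposited table, in blocks of 200 loci ranked by length with block 1 the longest; the 37 shortest loci fill no block. The head line starts at 32.5% in block 1 and is at most 18.5% in the others, and the body line starts at 7.85%.

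Calls depend on level and on the number of fragments, so the members were set beside other loci of 600 bases or more at like values. Where the higher tissue had 3 to 10 FPKM, 34.0% of 50 tested members were called higher in head and 0 higher in body, against 7.53% and 5.30% of the 3507 other loci. At 10 to 30 FPKM, 28.0% of 93 members were called higher in head and 8.60% higher in body, against 9.42% and 12.3% of the other loci. At 30 to 100 FPKM the shares were 34.1% and 14.6% of 41 members, against 11.0% and 26.5% of the other loci. Of the 7 members above that level, 5 were called higher in head and 1 higher in body, against 10.6% and 39.4% of 1037 other loci. The members' median log2 difference over these 4 levels, low to high, was 0.75, 0.57, 0.12 and 2.70, and that of the other loci was 0.48, -0.08, -0.85 and -1.43.

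The members were also set beside the other loci at like numbers of estimated fragments in the tissue with fewer. Only tested loci were counted, and the untested members had at most 3.03 FPKM in head and 2.33 FPKM in body. In a long locus, few fragments mean a low FPKM. Tested members with few fragments in 1 tissue were therefore mostly those with a large difference. The groups of few fragments are thus not like sets of loci. Under 10 fragments, 2 of 12 tested members were called higher in head and 1 higher in body, against 11.3% and 19.6% of 2762 other loci. In that group the medians ran the other way, with a log2 difference of -3.35 over the members and 0.60 over the other loci. With 10 to 30 fragments, 10 of 12 members were called higher in head and 0 higher in body, against 11.7% and 6.98% of 2119 other loci.

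With 30 to 100 fragments, 22 of 39 tested members were called higher in head and 3 higher in body, against 8.44% and 9.74% of 2227 other loci. With 100 to 300 fragments, 14 of 63 members were called higher in head and 4 higher in body, against 5.93% and 18.5% of 1451 other loci. With 300 to 1000 fragments, 12 of 57 members were called higher in head and 6 higher in body, against 4.18% and 27.1% of 694 other loci. At 1000 fragments or more, 2 of 8 members were called higher in head and 1 higher in body, against 3.94% and 36.2% of 279 other loci. In the 5 groups of 10 fragments or more, the members' median log2 difference was 2.04, 1.33, 0.56, 0.12 and -0.01, and that of the other loci was 0.38, -0.02, -0.43, -0.75 and -0.89. The members' median was the higher one in these 5 groups and the lower one under 10 fragments.

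**Figure D5:**
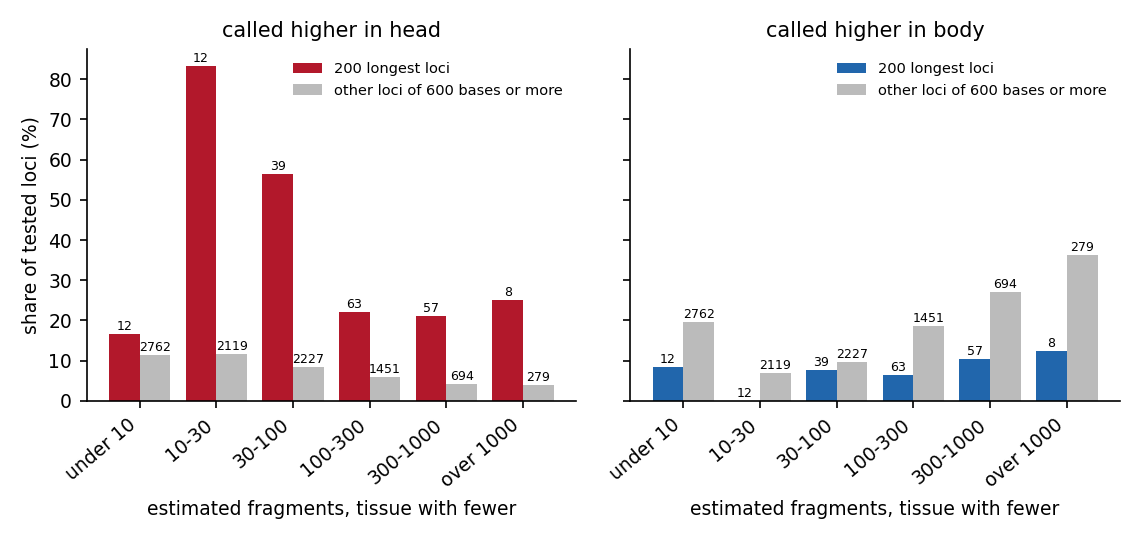
Share of tested loci (%) called higher in head (left) and higher in body (right), by the estimated number of fragments in the tissue with fewer, for the 200 longest loci and for other loci of 600 bases or more with 1 locus per Trinity gene; the number above each bar is the number of tested loci. In each of the 6 groups the members' bar is the taller one on the left and the shorter one on the right, though groups of 8 and 12 members are small. In the groups of few fragments, the tested members are mostly those with a large difference.

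The 62 members called higher in head were all above 0 in both tissues, with a median of 17.5 FPKM in head and 3.59 FPKM in body. Their folds ranged from 2.53 to 53.6 with a median of 5.16. The largest log2 differences among them were those of XLOC_010456 and XLOC_014167. XLOC_010456, bases 1 to 6047 of TRINITY_DN12312_c1_g1_i1, reached 468 FPKM in head, against 19.1 FPKM in body, a log2 difference of 4.54 with q = 0.00041 in the authors' deposited table. XLOC_014167, bases 5 to 4525 of TRINITY_DN13038_c7_g1_i1, reached 57.7 FPKM in head, against 3.77 FPKM in body, a log2 difference of 3.62 with the same q in the authors' deposited table. The smallest p the authors' table can hold, 5e-05, was given to 31 members, 23 of them higher in head.

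Of the 15 members called higher in body, 14 were above 0 in both tissues, with medians of 5.57 FPKM in head and 31.5 FPKM in body. Their folds, body over head, ranged from 2.84 to 23.5 with a median of 5.78, so calls in both directions were of like size. XLOC_009352, bases 14 to 4829 of TRINITY_DN12093_c0_g3_i2, reached 1.25 FPKM in head, against 29.5 FPKM in body, a log2 difference of -3.76 with q = 0.00041 in the authors' deposited table. XLOC_001483, bases 513 to 6495 of TRINITY_DN10443_c1_g1_i3, reached 4.74 FPKM in head, against 73.9 FPKM in body, a log2 difference of -3.71 with the same q in the authors' deposited table. The median length was 4806 bases for these 14 loci and 5620 bases for the 62 called higher in head.

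The most abundant members differed with the tissue used to rank them, and each ranking favours its own tissue. The highest head level was that of XLOC_014104, bases 1 to 4810 of TRINITY_DN13030_c2_g1_i2, at 779 FPKM in head against 119 FPKM in body, a log2 difference of 2.70 with q = 0.00041 in the authors' deposited table. It was also the second highest in body. XLOC_010456, given above, was next in head, and XLOC_012892, bases 38 to 6011 of TRINITY_DN12814_c1_g3_i1, followed at 275 FPKM in head against 47.5 FPKM in body. A second locus with the same coordinates as XLOC_012892 was listed at 0 FPKM in head and 11.6 FPKM in body, so the split of reads between these loci is uncertain.

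In body the highest level was that of XLOC_011422, bases 31 to 4758 of TRINITY_DN12507_c3_g6_i1, at 28.4 FPKM in head against 162 FPKM in body. The third highest in body was XLOC_013654, bases 4 to 4798 of TRINITY_DN12953_c0_g2_i1, at 15.2 FPKM in head against 88.9 FPKM in body. Both were called higher in body, with q values of 0.00041 and 0.00179 in the authors' deposited table. The 20 members highest in head included 14 called higher in head and 0 called higher in body. Of the 20 highest in body, 2 were called higher in head and 5 higher in body, and 7 members were on both of these lists.

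The 200 members are 1.30% of the Trinity genes and span 6.60% of the summed length of 1 locus each. Weighted by length, as FPKM times locus length, they held 1.85% of the signal of all loci in head and 0.662% in body. The total here is over all loci, so these shares are not on the same base as the 6.60%. It includes loci of up to 153909 FPKM in head and 135587 FPKM in body. The 10 members with most of this weighted signal held 46.9% of the members' total in head and 27.1% in body.

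Many members had nearly equal levels in head and body. A difference under 2-fold (log2(FPKM + 1) scale) was found for 95 members (47.5%), against 45.5% over 1 locus per Trinity gene, and none of those 95 was called. This count depends on the processing. It was 69 with equal upper quartiles, 116 as TPM, and 87 and 129 with pseudocounts of 0.1 and 5. The TPM count also reflects the stronger shrinkage of the smaller TPM values. Over 4-fold, 34 of the 200 members were higher in head and 15 higher in body. Over 1 locus per Trinity gene these shares were 12.3% and 16.9%. The locus closest to equal level among those at 10 FPKM or more in both tissues was XLOC_003615, bases 76 to 4505 of TRINITY_DN10889_c2_g5_i4, at 37.3 FPKM in head against 38.2 FPKM in body. Its log2 difference was -0.03, which turns to 0.48 with equal upper quartiles and to 0.31 as TPM.

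A few long transcripts were close to absent from head. At less than 1/32 of the body level, among members with 3 FPKM or more in body, there were 7 loci, named here after their values were seen. XLOC_009285, bases 17 to 7033 of TRINITY_DN12080_c0_g1_i2, was listed at 0 in head and had 16.6 FPKM in body, with q = 0.00041 in the authors' deposited table. At its body level the head libraries would have held an estimated 1115 fragments, so with a limit of 3 fragments over both head libraries it was at least 372-fold lower in head. This limit covers counting error only.

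The other 6 were above 0 in head and were not called. XLOC_008904, on contig TRINITY_DN11998_c0_g1_i1, reached 0.117 FPKM in head, against 52.2 FPKM in body, with q = 0.216 in the authors' deposited table. XLOC_012915, on TRINITY_DN12819_c0_g3_i1, had 0.0332 FPKM in head, which is 2 fragments, and 41.7 FPKM in body. XLOC_013950, on TRINITY_DN13002_c4_g1_i1, reached 0.140 FPKM in head, against 41.3 FPKM in body. Each of these transcripts thus had under 1/200 of its body level in head.

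XLOC_012126, on TRINITY_DN12653_c0_g2_i1, had 0.0283 FPKM in head, the worth of 1 fragment, and 33.4 FPKM in body, with q = 0.390 in the authors' deposited table. XLOC_014034, on TRINITY_DN13019_c3_g1_i7, had 0.0324 FPKM in head, or 2 fragments, and 21.1 FPKM in body. XLOC_002504, on TRINITY_DN10665_c1_g4_i2, was the lowest of the 7 in body, at 0.112 FPKM in head against 5.55 FPKM in body. The 5 of these loci above 10 FPKM in body would have had an estimated 1334 to 3005 head fragments at their body level, where 1 to 7 were found. All 7 are the only locus of their Trinity gene.

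In the opposite direction 3 members were under 1/32 of their head level in body. XLOC_005354, on TRINITY_DN11257_c1_g2_i1, reached 19.4 FPKM in head, against 0.199 FPKM in body, with q = 0.165 in the authors' deposited table. XLOC_010929, on TRINITY_DN12419_c0_g3_i2, reached 6.10 FPKM in head, against 0.0799 FPKM in body. The other was XLOC_005731, the fifth longest locus, given above. Among the 10087 other loci of 600 bases or more, 1154 (11.4%) were under 1/32 in head and 327 (3.24%) under 1/32 in body by the same limits, against 7 and 3 of the 200 members.

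The authors' call did not follow the size of the difference at its upper end. Among members detected in both head and body whose higher level was 10 FPKM or more, the 16 loci with 4 to 8 times the body level in head and the 11 with 8 to 16 times were all called, as were the 4 and 3 such loci in the body direction. At 16 to 32 times, 3 of the 4 loci higher in head and both loci higher in body were called. None of the 6 members of 32-fold or more was called, 1 of them higher in head and 5 higher in body. XLOC_005731, the fifth longest locus, lies just under that level at 9.57 FPKM in head and was called at 53.6-fold. Of all tested members past 4-fold, 10 were not called, and these had at most an estimated 10.5 fragments in the tissue with fewer. Counted by direction, 4 of those 10 were higher in head and 6 higher in body. The 15 calls higher in body thus leave out the 5 loci above, which have the largest log2 differences of that direction. They include XLOC_009285, listed at 0 in head, with a log2 difference of -4.14.

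The authors did not test 9 members, whose highest levels were 3.03 FPKM in head and 2.33 FPKM in body. Of these, 8 had the higher FPKM in head. The ninth, XLOC_010305, was listed at 0 in both tissues. It shares its coordinates, bases 13 to 5488 of TRINITY_DN12281_c1_g9_i1, with XLOC_010306, which reached 8.02 FPKM in head, against 3.98 FPKM in body and was passed over because equal lengths are resolved by the lowest identifier. Shared coordinates with another locus were found for 5 members in all, and 18 members lie on a contig that carries another locus, so their levels are less certain.

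Most members are the only locus listed for their Trinity gene, though the assembler may have made other versions that are not listed. For 142 of the 200 (71.0%) no other locus of the Trinity gene is in the table, against 80.3% over all Trinity genes, and the other 58 have up to 8 loci per gene. Single loci had 42 calls higher in head and 11 higher in body among 135 tested, and loci with companions had 20 and 4 among 56 tested. The 58 Trinity genes hold 92 shorter loci with a median length of 958 bases. Of these 92, 61 had the higher FPKM in the same tissue as the member. Where both the member and a shorter locus of its gene were called, 10 pairs in 8 Trinity genes, all pairs were higher in head. In 30 pairs the member alone was called, and in 20 of these the shorter locus was higher in the same tissue. In 11 pairs the shorter locus alone was called, and in 5 of these it was higher in the other tissue than the member. Pairs of a Trinity gene may share reads and are not independent.

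Most members run from near the start of their contig. For 157 of them the locus began within the first 100 bases, and 54 of 151 tested were called higher in head and 8 higher in body. The 43 that began later had 8 calls higher in head and 7 higher in body among 40 tested, with medians of 7.99 FPKM in head and 6.91 FPKM in body. Whether these shares differ was not tested. At the extreme, XLOC_003393 began at base 10333 of TRINITY_DN10845_c0_g2_i3, and reached 11.6 FPKM in head, against 0.381 FPKM in body without being called.

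Trinity splits a read component, termed a cluster here, into genes. The 200 members come from 191 clusters, of which 9 hold a pair of members. In 8 of these 9 pairs both members had the higher FPKM in the same tissue. Head was the higher tissue for 71.0% of the members, so many unrelated pairs would share a direction too. Agreement beyond that was not tested. The only pair with both members called was XLOC_014168, at 38.1 FPKM in head against 2.32 FPKM in body, and XLOC_014167, at 57.7 FPKM in head against 3.77 FPKM in body. In the pair of opposite directions, XLOC_012527 reached 2.32 FPKM in head, against 10.7 FPKM in body and was called higher in body, while XLOC_012530 reached 70.6 FPKM in head, against 67.7 FPKM in body.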

How the data were processed

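One table was used. Its FPKM values, p-values and q-values are those the authors deposited, 1 value per tissue for each locus, per the file headers. The submitters' processing notes name TopHat and Cufflinks and give no version, and contigs carry Trinity names. How reads were aligned and libraries scaled is not given in the sources used. Libraries were made from total RNA with a TruSeq kit, per the labels' protocols. The authors' q equalled a Benjamini-Hochberg adjustment over all tested loci to within 5.2e-07, so calls are adjusted over the whole table. With no value per library, the planned model could not be fitted and no test was added.

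Differences are log2((head FPKM + 1)/(body FPKM + 1)), which shrinks those of low loci. Fragments were estimated from FPKM × (length − 201 bases)/1000, whose lowest values lay at 0.0883 and 0.119 in head and at 0.210 and 0.226 in body, taken as 1 fragment of each library. This assumes that a transcript fills its span and that both libraries of a tissue share a level, and depth in reads is unknown. The steps and the adjustment were tested on simulated data.

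The members and all lists were chosen with earlier results of these data known. Named loci are the 5 longest, the 2 on each side of the length limit, the 3 highest per tissue, the 2 largest called differences per direction, the one at 0 in head and the one closest to equal level, 19 in all. No member was at 0 in body and above 0 in head. Calculations used Python 3.11.15, numpy 2.4.6, pandas 2.3.3 and matplotlib 3.10.9.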

Additional observations from a re-analysis of the deposited data

How the results depend on the processing

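The 77 called members, 62 higher in head and 15 higher in body, became 57, with 44 and 13, at a q under 0.01. These are 29.8%, 23% and 6.81% of the 191 tested members. Over all tested loci, 588 of 1855 calls higher in head and 576 of 2782 higher in body had q between 0.01 and 0.05. The counts stayed within 1.5 times at that q, without loci listed at 0 and at 10 FPKM or more in the higher tissue. They did so too for the 400 longest per 200 members, with 1 locus per contig and with 10 or more estimated fragments in each tissue. The last 2 settings were chosen after seeing the data. A minimum of 2-fold could not change the counts, since no member under 2-fold was called. The 100 longest alone held 47 calls among 93 tested loci (50.5%), 41 higher in head (44.1%) and 6 higher in body (6.45%). The same shares of the 200 members were 40.3%, 32.5% and 7.85%. Within 2-fold were 39 of the 100 longest, against 95 of the 200 members (47.5%). The members' median log2 difference moved to 1.11 after equalising upper quartiles, 0.64 as TPM, 0.73 and 0.43 for pseudocounts of 0.1 and 5, 0.57 at 10 FPKM or more, 0.93 for the 100 longest, 0.46 for the 400 longest and 0.59 for the 200 longest loci of any Trinity gene. It stayed above 0 in each, and its TPM value also reflects the stronger shrinkage of the smaller TPM values. Of the 19 named loci only XLOC_003615 changed direction, to 0.48 with equal upper quartiles and 0.31 as TPM. No paired analysis was possible because each tissue has 1 deposited value, and for the same reason no replicate could be left out. Low body levels are limited more by depth than low head levels.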

Other observations

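The members that the assembler numbered highest were those most often called higher in head. Trinity numbers its read clusters, and 12 members come from clusters numbered 13000 or more. Of these, 9 were called higher in head and 1 higher in body, with a median log2 difference of 2.90, and their median levels were 48.6 FPKM in head and 8.52 FPKM in body. Among the 90 members from clusters 12000 to below 13000, 28 were called higher in head and 8 higher in body, with a median log2 difference of 0.68. The 51 members from clusters 11000 to below 12000 had 11 and 5 such calls and a median of 0.57, and the 40 from clusters 10000 to below 11000 had 11 and 1 and a median of 0.53. The 7 members from clusters numbered below 10000 had 3 and 0 such calls and a median of 0.91, so the difference did not follow the numbering in order. The members of the highest numbers were also longer, with a median of 6905 bases. Among other loci of 600 bases or more, those from clusters numbered 13000 or more had 108 calls higher in head and 81 higher in body among 806 tested, and a median log2 difference of 0.54, whereas the 4 lower ranges had medians between -0.13 and 0.19. The part of the numbering, which the assembler sets, in these differences was not tested.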
